A study of Homo sapiens with 4 samples.

Results

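The ATP-binding cassette (ABC) genes are described here in NCI-H520 cells, a line established from a squamous cell carcinoma of the lung. Members are the rows of the gene count table named ABC, then 1 letter from A to G, then digits only, with 2 rows of that pattern left out, which gave 44 of 28277 genes. The cells were wild type in all libraries and came from a single line. The Vehicle group (2 libraries) had received ultrapure water for 12 h and the Hx1R8 group (2 libraries) 10 µM Hx1R8 for 12 h, and RNA-seq read counts per gene were compared between them. The series concerns SOX2 self-association and resistance to chemotherapy, so the family is read here for its drug pumps. The labels do not describe the agent Hx1R8 further, and they name no chemotherapy drug for any library.

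ABC proteins bind and hydrolyse ATP in paired nucleotide-binding domains, and in most members that energy moves a substrate across a membrane. Members of the B, C and G subfamilies can carry drugs or drug conjugates out of cells and are known for multidrug resistance in cancer, including lung cancer. Other members move cholesterol and phospholipids, fatty acids into peroxisomes, or haem-related compounds in mitochondria, and the E and F subfamilies lack membrane domains and act in translation.

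Total counts ranged from 17259403 to 20920857 per library. SOX2 stood at 528 ± 18.6 CPM (counts scaled to a common library size with TMM factors) for Vehicle and 509 ± 17.4 CPM for Hx1R8 (SD, n = 2 each), while 3 of 6 squamous markers were below 1 CPM in all libraries, among them KRT14 and DSG3 at 0 counts. Of 12 markers of immune, endothelial, fibroblast, alveolar and neuroendocrine cells, 7 were below 1 CPM in all libraries, with PTPRC, CD3E, PECAM1 and SFTPC at 0 counts. Their summed level was 41.2 to 44.5 CPM in Vehicle and 42.7 to 46.5 CPM in Hx1R8, with the neuroendocrine gene INSM1 highest at means of 23.9 and 26.5 CPM. Their part in the values below was not tested. In bulk RNA a difference in the share of cells and a difference in RNA per cell cannot be told apart.

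Sequence before the gene starts is shown for 3 drug pumps because their CpG content and their levels in these cells fall in different orders. The stretches are from RefSeq (GRCh38.p14), lie in the 250 bases before a listed start, run 5′ to 3′ on the gene's strand, and have each CpG dinucleotide in capitals. Bases in exons of the GENCODE annotation were cut off, 24 from the ABCC4 window and 115 from the ABCG2 window. ABCC2 (chr10:99782390-99782639, + strand), ABCC4 (chr13:95301476-95301701, − strand) and ABCG2 (chr4:88159025-88159159, − strand) read:
ABCC2: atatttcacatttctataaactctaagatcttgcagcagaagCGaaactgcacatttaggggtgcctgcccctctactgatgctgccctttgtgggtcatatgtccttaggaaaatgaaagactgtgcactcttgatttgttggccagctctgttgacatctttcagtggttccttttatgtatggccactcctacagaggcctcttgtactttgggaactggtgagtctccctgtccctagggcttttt
ABCC4: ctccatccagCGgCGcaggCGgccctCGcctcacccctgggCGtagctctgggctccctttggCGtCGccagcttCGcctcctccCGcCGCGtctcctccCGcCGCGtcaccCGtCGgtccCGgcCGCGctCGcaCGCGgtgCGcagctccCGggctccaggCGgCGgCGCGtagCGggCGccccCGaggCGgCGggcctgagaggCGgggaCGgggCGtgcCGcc
ABCG2: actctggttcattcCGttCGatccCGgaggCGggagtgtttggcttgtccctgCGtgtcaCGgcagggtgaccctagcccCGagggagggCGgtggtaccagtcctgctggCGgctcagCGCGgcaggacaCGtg
The ABCC2 stretch has 1 CpG in 250 bases, the ABCC4 stretch 37 in 226 and the ABCG2 stretch 12 in 135.

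Of the 44 members, 25 were expressed in these cells, here meaning at least 1 CPM in all 4 libraries. ABCA1, the cholesterol exporter, lay at the border with 1.14 and 1.10 CPM in Vehicle and 0.987 and 0.906 CPM in Hx1R8. The other 18 were below 1 CPM in all libraries, 6 of them with no read at all and 9 with 1 to 10 reads over the 4 libraries together. A count of 0 allows up to 3 counts, or 0.143 to 0.174 CPM, for counting error only. The expressed share of 56.8% was close to the 57.7% of 338 SLC solute carrier genes. It was above the 46.0% of all genes in the table, and these shares are descriptions without a test. The CPM cutoff ignores exon length. Its median was 5682 bases in members and was not compared with the other sets.

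The drug efflux group, as listed here, held most of the family's reads. Its 13 genes took 54.0% of all reads on members, with ABCA3 (8.81%) and ABCA2 (3.08%) counted in. That majority depends on listing these A-subfamily genes as drug pumps. The summed level of the group was 788 and 818 CPM in Vehicle and 781 and 795 CPM in Hx1R8. The 3 genes without membrane domains followed with 23.6% of reads, the 5 mitochondrial and lysosomal genes with 11.2%, and the 4 D-subfamily genes with 7.49%. The 15 lipid, sterol and bile salt genes took 2.93%. The Vehicle and Hx1R8 totals overlapped for drug efflux, lipid transport and channel regulators. They did not overlap for the genes without membrane domains, with 353 and 348 CPM in Vehicle against 346 and 345 CPM in Hx1R8. The mitochondrial and lysosomal total was 166 and 167 CPM in Vehicle and 164.2 and 164.0 CPM in Hx1R8, again without overlap. The D-subfamily total, 110.7 and 111 CPM against 109 and 110.5 CPM, and the whole-family total, 1473 and 1499 CPM against 1458 and 1467 CPM, did not overlap either. In these 4 sums Hx1R8 was the lower group. The whole-family sum contains the others, so the 4 are not separate observations. Hx1R8 was lower without overlap in 15.2% of single tested genes, a share that was not worked out for sums. The sums were not tested.

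Levels between genes were compared as FPKM, here CPM per kilobase of exon on the primary chromosome. ABCC1 (MRP1, an exporter of glutathione conjugates and anthracyclines) was the highest member at 49.7 ± 1.99 FPKM for Vehicle and 49.4 ± 0.802 FPKM for Hx1R8 (SD, n = 2 each). ABCE1, a ribosome recycling factor, followed at a mean of 46.6 FPKM over the 4 libraries, ABCF1, a translation initiation factor, at 41.6 FPKM, and ABCC2 (MRP2, an apical exporter of drug conjugates) at 35.8 FPKM. The ranges of ABCC1 and ABCE1 over the 4 libraries overlapped, so their order was not resolved, while ABCE1, ABCF1 and ABCC2 were separated from each other in every library. Among tested genes 90.6% had a lower FPKM than ABCC1 and 86.6% a lower FPKM than ABCC2.

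Among the members below these were ABCA3 at 19.6 FPKM, ABCB10 at 17.5 FPKM, ABCD4 at 17.1 FPKM, ABCD3 at 12.3 FPKM and ABCC4 at 10.0 FPKM, all as means over the 4 libraries. A group between 2.14 and 5.59 FPKM followed, from ABCF2 down to ABCC8. Then the level dropped to 0.616 FPKM for ABCC3, and 0.428, 0.385, 0.369 and 0.356 FPKM for ABCA5, ABCG1, ABCC6 and ABCB4. ABCA13, with 17188 exon bases, was the lowest expressed member at 0.0746 FPKM. ABCA1, below the CPM cutoff in Hx1R8, stood higher at 0.0993 FPKM. Of 24 neighbouring pairs in this order of the 25 expressed members, 10 had overlapping ranges, among them ABCB10 with ABCD4 and ABCF2 with ABCA2. The deposited lengths of ABCC1, ABCC6, ABCB11 and ABCF1 sum exons over alternate contigs too, and with them ABCC1 would stand at 24.8 FPKM and ABCF1 at 5.95 FPKM.

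**Figure D1:**
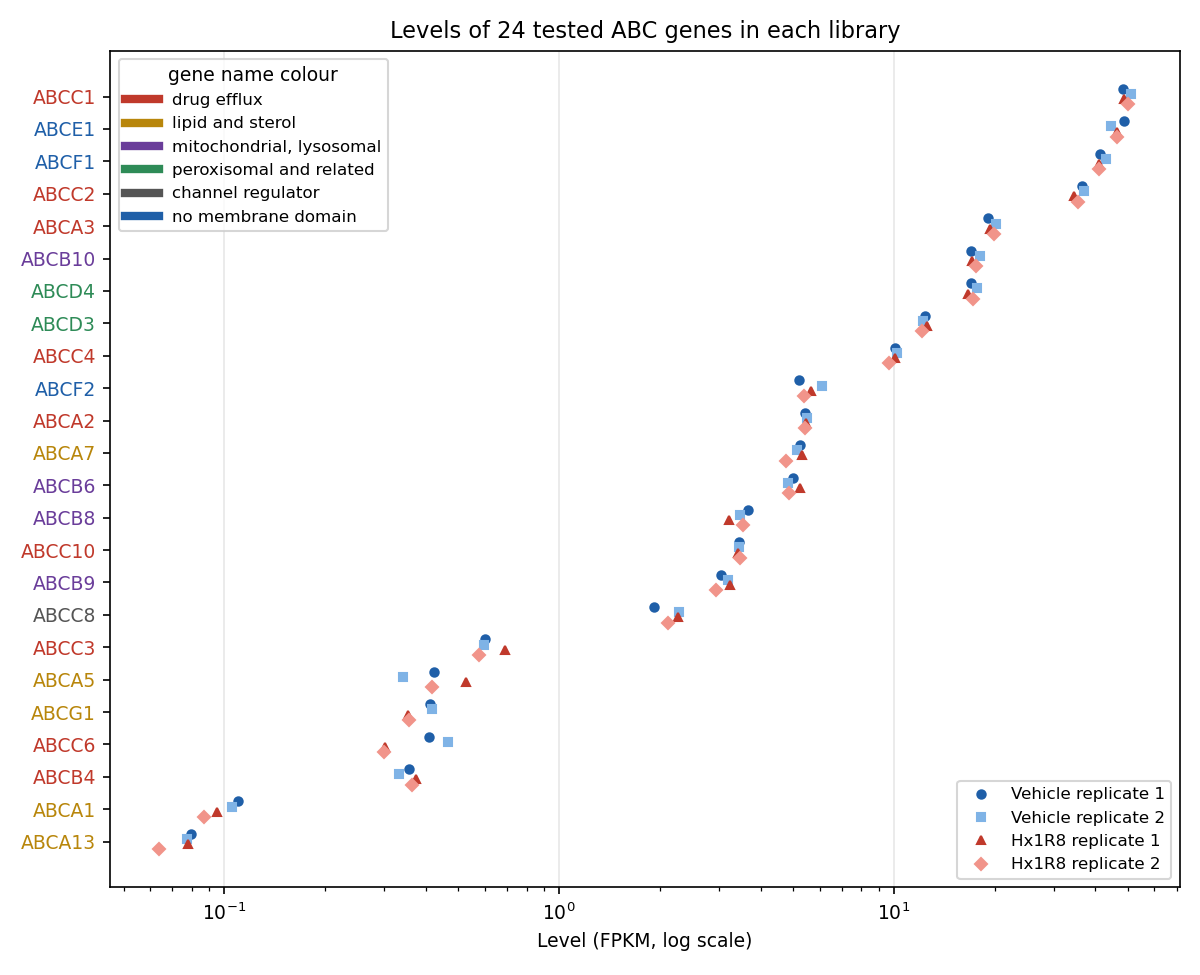
Level of 24 of the 26 tested ABC genes (FPKM, log axis) in the 4 libraries, with 1 symbol per library and gene names coloured by role. ABCC1, ABCE1, ABCF1 and ABCC2 lie at or above 34.4 FPKM in every library, and the symbols of 1 gene lie close together beside the differences between genes.

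Among the drug pumps, ABCC1 and ABCC2 were abundant while ABCB1 and ABCG2 were nearly undetected. ABCB1 (P-glycoprotein, the classical multidrug pump) had 2 and 4 reads in Vehicle and 1 and 3 in Hx1R8. ABCG2 (BCRP, a pump for topoisomerase inhibitors) had 2 and 5 reads in Vehicle and 4 and 7 in Hx1R8. All of these values were at or below 0.334 CPM, and neither gene passed the filter for testing. ABCC11, a pump for nucleotide analogues, had 1 to 3 reads per library, and ABCB5, a pump described in melanoma, had none.

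The 9 drug efflux genes that could be tested did not differ detectably after Hx1R8, and the abundant ones were closely bounded. Over the family, 0 of 26 tested members passed an adjusted p of 0.05 by edgeR's quasi-likelihood test, against 0.0207% of all 14482 tested genes (3 genes). DESeq2 and limma-voom also called 0 members. Of the 9 tested drug efflux genes 4 had a log2 fold change above 0 and 5 below, with a median of -0.0043. At an unadjusted p under 0.05 there was 1 member, ABCC6, or 3.85% of members against 3.39% of all tested genes.

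ABCC1 (chromosome 16, 15949616 to 16143053, + strand) was at 314 and 333 CPM in Vehicle and 318 and 325 CPM in Hx1R8. The Vehicle libraries enclosed both Hx1R8 libraries. The log2 fold change was -0.01 (SE 0.05), with 95% bounds on the fold of 0.930 and 1.06.

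ABCC2 (chromosome 10, 99782640 to 99852594, + strand) was at 212 and 214.5 CPM in Vehicle and 200 and 206 CPM in Hx1R8. Both Hx1R8 libraries lay below both Vehicle libraries, by a log2 fold change of -0.07 (SE 0.05) with a 95% interval of the fold from 0.891 to 1.02. The adjusted p was 0.9999 (edgeR), with a lowest adjusted p of 0.457 over its 11 alternatives.

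ABCA3, which loads surfactant lipids into lamellar bodies and can sequester drugs in vesicles, was at 126 and 133 CPM in Vehicle and 128 and 132 CPM in Hx1R8. ABCC4 (MRP4, an exporter of cyclic nucleotides and nucleoside analogues) was at 63.2 and 64.2 CPM in Vehicle and 63.3 and 60.7 CPM in Hx1R8. ABCA2, a transporter of the endolysosomal membrane, was at 45.2 and 45.7 CPM in Vehicle and 45.5 and 45.1 CPM in Hx1R8. In all 3 genes the groups overlapped, and their 95% intervals of the fold lay between 0.895 and 1.09.

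ABCC10 (MRP7, an exporter that can carry taxanes) was at 19.19 and 19.24 CPM in Vehicle and 19.1 and 19.4 CPM in Hx1R8, and the groups overlapped. ABCC3 (MRP3, a basolateral exporter of glucuronides) had 61 and 60 reads in Vehicle and 69 and 70 in Hx1R8, and its groups overlapped in CPM. ABCB4, the phosphatidylcholine translocator of bile, was at 1.54 and 1.44 CPM in Vehicle and 1.63 and 1.57 CPM in Hx1R8. The 2 groups of ABCB4 did not overlap, but its interval of the fold, 0.726 to 1.58, included no change.

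ABCC6, a liver and kidney transporter whose loss causes soft tissue calcification, had the lowest value of the family. Its reads numbered 40 and 45 in Vehicle and 29 and 35 in Hx1R8, or 2.28 and 2.60 CPM against 1.68 and 1.67 CPM. Both Hx1R8 libraries were below both Vehicle libraries, with a log2 fold change of -0.54 (SE 0.24), an unadjusted p of 0.031 and an adjusted p of 0.9999 (edgeR). With each library left out the log2 fold change ran from -0.63 to -0.44 and the lowest adjusted p over 11 alternatives was 0.387. The gene has the partial copies ABCC6P1 (11 and 5 reads in Vehicle, 9 and 7 in Hx1R8) and ABCC6P2 (1 and 3 reads in Vehicle, 3 and 4 in Hx1R8). The counting could divide reads among them, so ABCC6 is uncertain.

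**Figure D2:**
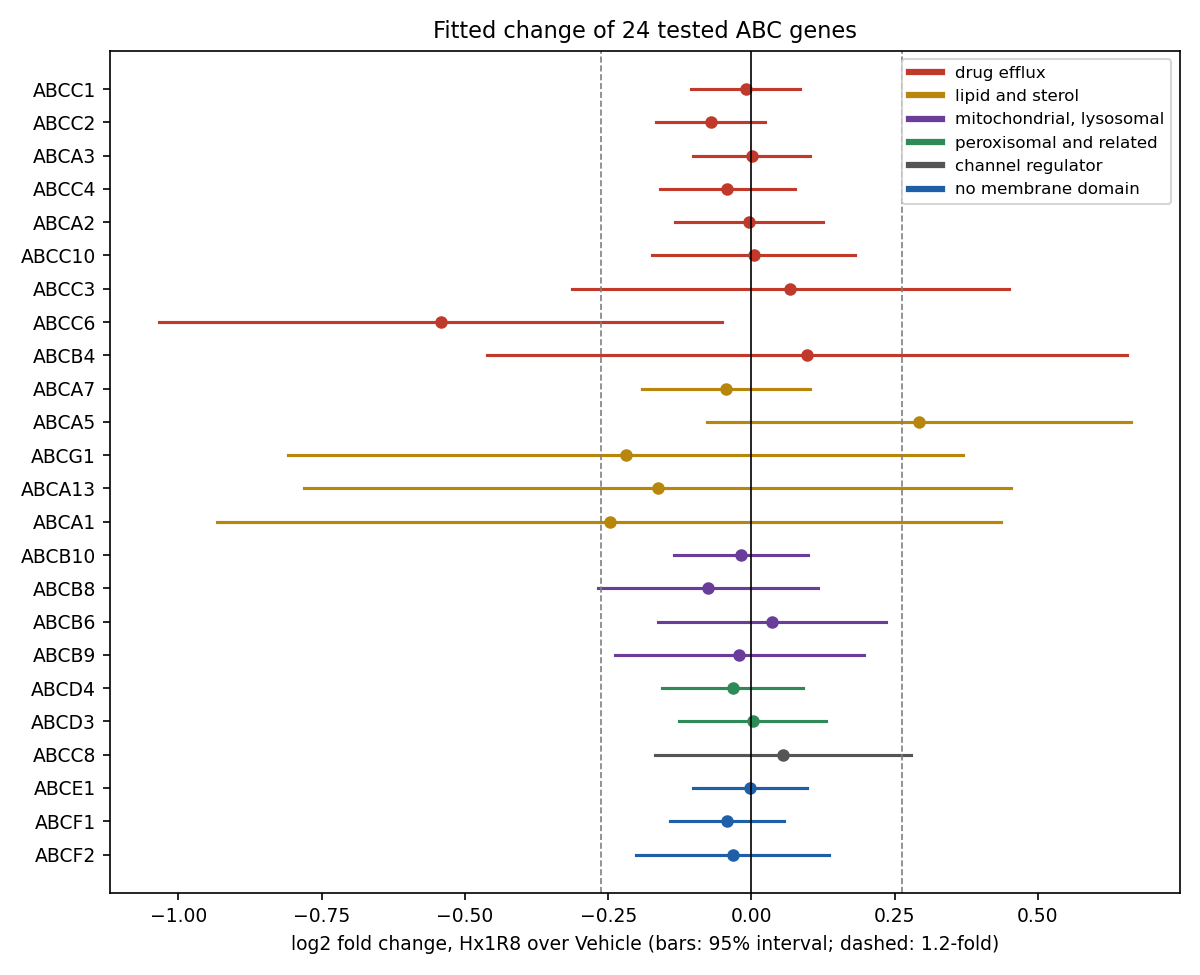
Fitted log2 fold change (Hx1R8 over Vehicle) of 24 of the 26 tested ABC genes, coloured by role, with bars for the 95% interval and dashed lines at 1.2-fold in either direction. Values lie near 0 with short bars for abundant genes, and bars lengthen for scarce genes such as ABCA1, ABCG1 and ABCC6.

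Outside the drug pumps the values were as closely bounded where reads were plentiful. In the mitochondrial and lysosomal group the 95% bounds of all 5 genes stayed within 1.5-fold either way. ABCB10, of the inner mitochondrial membrane and linked to haem synthesis, had a log2 fold change of -0.02 (SE 0.06). ABCB8, a mitochondrial transporter, had the lowest value of the group at -0.08 (SE 0.09), ABCB6, linked to porphyrins, the highest at 0.04 (SE 0.10), and ABCB9, a lysosomal peptide transporter, lay at -0.02 (SE 0.11).

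In the D subfamily, ABCD3, which imports branched-chain acyl chains into peroxisomes, was at 47.0 and 46.3 CPM in Vehicle and 47.5 and 46.0 CPM in Hx1R8, and ABCD4, which acts in lysosomal cobalamin export, had a log2 fold change of -0.03 (SE 0.06). ABCD2, also peroxisomal, had 0 to 2 reads per library.

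The lipid and sterol group was scarce and weakly bounded. ABCA7, a phospholipid transporter, was its most abundant member at 35.7 and 35.0 CPM in Vehicle and 36.3 and 32.5 CPM in Hx1R8, and the only one of 5 tested genes bounded within 1.5-fold. ABCA5, an endolysosomal member, had the highest value of the family at 0.29 (SE 0.18), on 70 and 56 reads in Vehicle and 86 and 83 in Hx1R8. Its groups overlapped in CPM, and its log2 fold change ran from 0.13 to 0.46 with each library left out. ABCG1, an exporter of cholesterol to HDL, had -0.22 (SE 0.29), ABCA1 had -0.25 (SE 0.34) and ABCA13, a very large member, had -0.16 (SE 0.30), each on 17 to 27 reads per library. ABCA1 and ABCG1 were both lower in each Hx1R8 library than in each Vehicle library, and the test did not call either.

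ABCC8, the sulfonylurea receptor of the pancreatic beta cell potassium channel, was expressed at 10.7 and 12.8 CPM in Vehicle and 12.7 and 11.8 CPM in Hx1R8. Its relative ABCC9 had no read and ABCC12 had 2 reads in all. ABCC13, in no role list here, had none. ABCE1 had a log2 fold change of -0.002 (SE 0.05), ABCF1 -0.04 (SE 0.05) and ABCF2 -0.03 (SE 0.08). ABCF2 overlaps LOC114483834 (3 to 5 reads per library), which leaves 56.9% of its exon bases to itself, and its level is uncertain.

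Across all 26 tested members the median log2 fold change was -0.02, against -0.0018 over all tested genes. There were 8 members above 0 and 18 below, that is 30.8% above, against 48.9% of all tested genes. Both Hx1R8 libraries lay below both Vehicle libraries in 5 members (ABCA1, ABCC2, ABCC6, ABCF1 and ABCG1), where 15.2% of all tested genes did so, and above in 1 member (ABCB4), where 14.7% did. The median without Vehicle replicate 1 was -0.043 and without Vehicle replicate 2 -0.0044, so its size moved with the control that was kept. Intervals were within 1.5-fold of no change for 20 of 26 members (76.9%, against 81.4% of all tested genes) and within 1.2-fold for 16 (61.5%, against 57.6%). These 16 all belong to the 18 members above 10 CPM in every library, and the other two, ABCB8 and ABCC8, just missed that bound.

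The spread between libraries of a group was of the same size as the spread between groups. Vehicle replicate 2 had the highest value in 12 of the 25 expressed members, more than Hx1R8 replicate 1 (7), Vehicle replicate 1 (4) or Hx1R8 replicate 2 (2). Over tested members its median log2 deviation from the 4-library mean was 0.034, against 0.0012 for Vehicle replicate 1, 0.0023 for Hx1R8 replicate 1 and -0.018 for Hx1R8 replicate 2. It also differed most from Vehicle replicate 1 over all genes, with a chi-square per gene of 2.94 against 1.48 to 2.42 for the other pairs of libraries. Without it the median of the members was the -0.0044 given above.

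**Figure D3:**
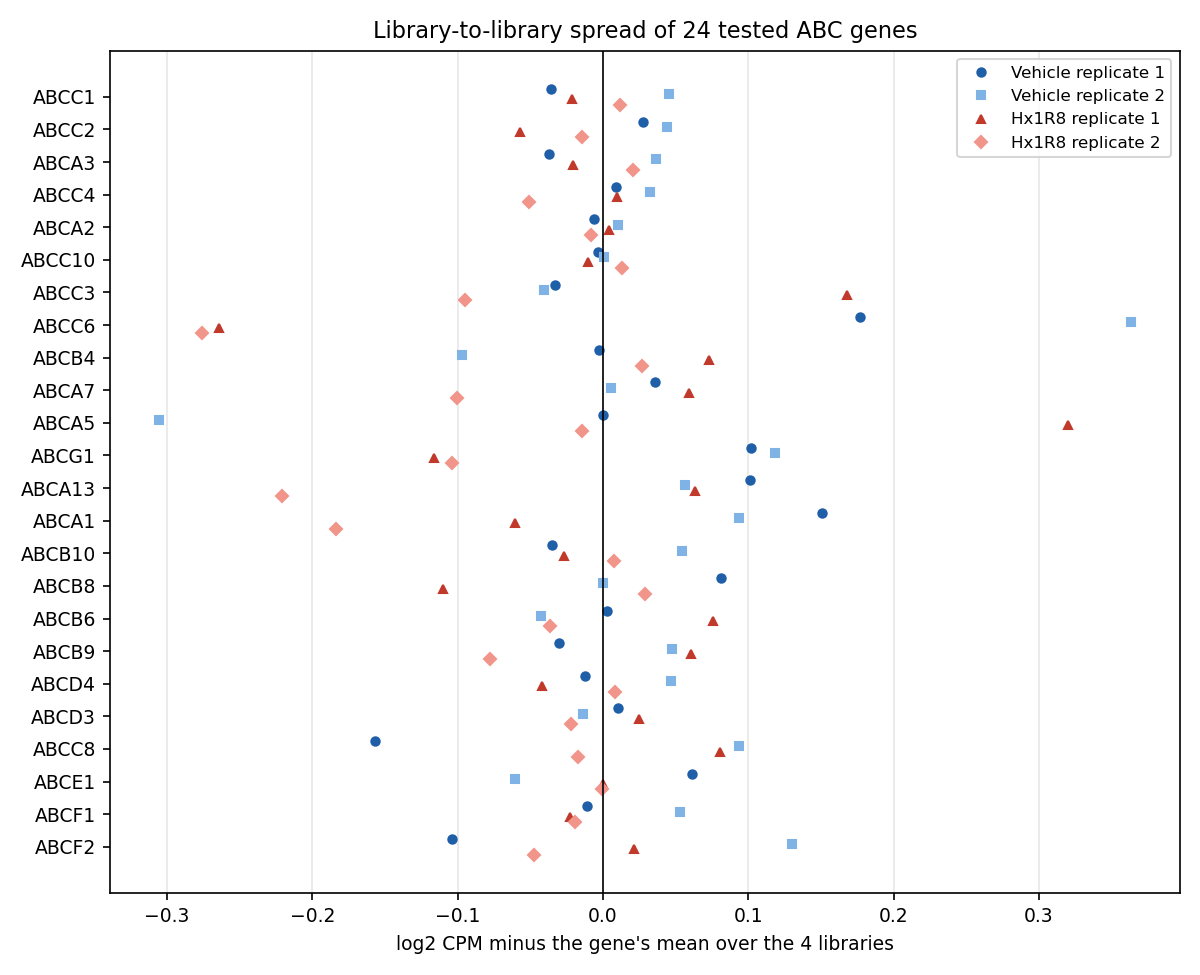
Log2 CPM of each library minus the gene's mean over the 4 libraries, for 24 of the 26 tested ABC genes ordered by role and level, with 1 symbol per library. Blue and red symbols are interleaved in most rows; the widest rows are ABCC6 and ABCA5, and Vehicle replicate 2 is most often the rightmost symbol.

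Neighbouring members were alike in level at some places in the genome and far apart at others. Pairs are adjacent members on a chromosome, at most 297228 bases apart here. Of 10 neighbouring pairs, 2 had both genes expressed, 5 had neither and 3 had 1 of the pair, given as counts without a test. ABCB8 and ABCF2 on chromosome 7, 163701 bases apart, were both expressed, at 3.47 and 5.59 FPKM. ABCC1 and ABCC6 lie on chromosome 16 on opposite strands, 6511 bases apart, at 49.6 and 0.369 FPKM. On chromosome 17, ABCA8, ABCA9, ABCA6 and ABCA10 had 0, 3, 0 and 3 reads in all 4 libraries together, whereas ABCA5 at the end of the same cluster had 295 reads. ABCA5 and ABCA10 share some exon bases. ABCB4 and ABCB1 lie 27313 bases apart on chromosome 7 and had 113 and 10 reads, ABCC12 and ABCC11 on chromosome 16 had 2 and 8, and the divergent sterol pair ABCG5 and ABCG8 on chromosome 2, 131 bases apart, had 0 and 20.

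CpG content before the start was higher at the median in expressed members than in the others, with exceptions in both directions. RefSeq start windows matched 33 of 44 members. The other 11 had no entry, among them ABCA4, ABCA8, ABCB4, ABCB5, ABCC1, ABCC3, ABCC8, ABCC13 and ABCG1. CG was counted in the 250 bases before the start, with exon bases left in, taking the highest count where a gene had several starts. The 18 expressed members had 1 to 54 with a median of 25.5, and the 15 others had 1 to 32 with a median of 8. At least 10 CpG were found in 16 of the 18 and in 6 of the 15, against 54.9% of all 27305 genes with a window, whose median was 12 when counted in the same way. The genes outside the family were not split by expression, so whether this contrast is particular to ABC genes was not tested. These values describe the sequence, carry no test, and say nothing of methylation, which was not analysed here.

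Among the expressed drug pumps that had a window, which leaves out ABCC1, ABCC3 and ABCB4, ABCC2 was the exception with 1 CpG. That count was reached or undercut by 14.7% of all windows, and ABCC2 stood at 35.8 FPKM. ABCC4 had 42 CpG in its full window and 10.0 FPKM. ABCG2 had up to 32 CpG in a window and 0.0439 FPKM, and ABCG4 up to 25 CpG and 0.0132 FPKM. All 250 bases of that ABCG2 window lie in GENCODE exons. The full ABCG2 window that gave the printed stretch had 27 CpG. ABCB1 had up to 12 CpG over its 2 starts and 0.0237 FPKM, and its window with 12 CpG also overlaps listed exons.

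**Figure D4:**
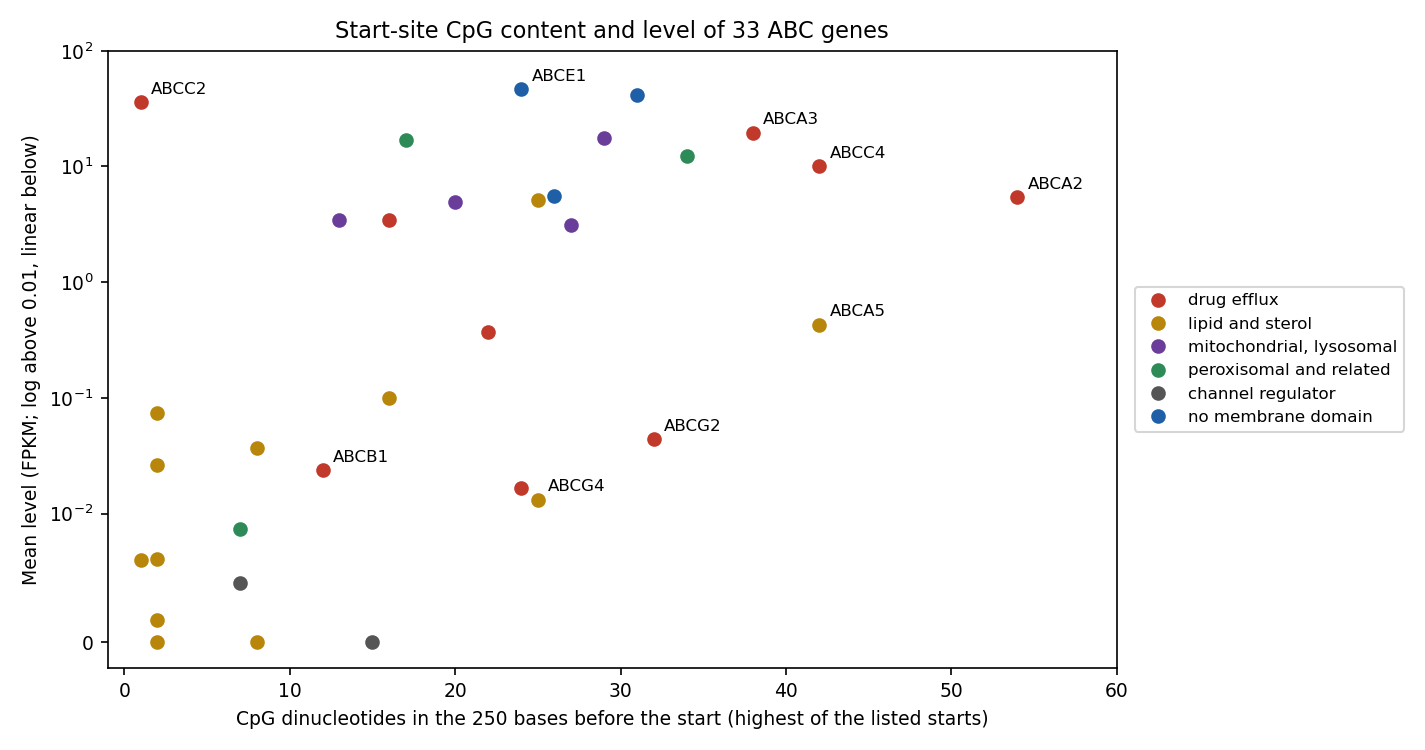
CpG dinucleotides in the 250 bases before the start (x axis, highest of a gene's listed starts) against mean level over the 4 libraries (y axis, FPKM, logarithmic above 0.01 and linear below) for the 33 ABC genes with a RefSeq window, coloured by role. ABCC2 stands alone at the upper left with 1 CpG and 35.8 FPKM, and ABCG2 and ABCG4 lie low at 32 and 25 CpG. Exon bases were left in the windows, and the ABCG2 window with 32 CpG lies wholly in GENCODE exons.

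Genes that act beside the transporters were read from lists, none of which had a member past the threshold. Among ABC transporters with other names, the peptide transporter subunits TAP2 and TAP1 had log2 fold changes of -0.08 (SE 0.06) and -0.02 (SE 0.06), and the chloride channel gene CFTR had 2 to 3 reads per library. The median of the 10 tested of 16 drug uptake carriers was 0.02, with 6 above 0 and 4 below. Among those with the smallest p were SLCO2B1 at 0.55 (SE 0.43) and the folate carrier SLC19A1 at 0.07 (SE 0.07). The copper carrier SLC31A1, which can bring platinum drugs into cells, averaged 109 ± 5.72 CPM for Vehicle and 112 ± 3.37 CPM for Hx1R8 (SD, n = 2 each).

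Many C-subfamily pumps export conjugates, such as those with glutathione. Of 20 glutathione and conjugation genes 16 were tested, with 6 above 0 and 10 below and a median of -0.0075. GSTO1 had 0.10 (SE 0.07), MGST2 -0.19 (SE 0.16) and MGST3 -0.13 (SE 0.12). GSTP1, the main glutathione transferase of lung tumours, averaged 492 ± 18.4 CPM for Vehicle and 477 ± 3.64 CPM for Hx1R8 (SD, n = 2 each), and NQO1, an NRF2 target, at 408 ± 3.38 and 406 ± 8.72 CPM.

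Of 19 regulators known to act on ABC genes, all transcription factors except KEAP1, 17 were tested, with 5 above 0 and 12 below and a median of -0.02. RXRB had -0.10 (SE 0.07), AHR -0.08 (SE 0.07) and HIF1A 0.06 (SE 0.05). NR1I2, the xenobiotic receptor that acts on ABCB1 in liver, had no read in any library. All 12 scaffold and partner genes were tested, with 6 above 0 and 6 below and a median of -0.0021. ATP7A, a copper pump, had -0.11 (SE 0.08), SLC9A3R2, a membrane scaffold, -0.07 (SE 0.09), PDZK1, a scaffold of apical transporters, 0.26 (SE 0.34), and radixin (RDX), which anchors ABCC2 at the apical membrane, averaged 79.0 ± 1.91 CPM for Vehicle and 81.2 ± 2.10 CPM for Hx1R8 (SD, n = 2 each).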

How the data were processed

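RNA-seq of 2 Vehicle and 2 Hx1R8 libraries was used. The authors deposited raw read counts per gene, aligned with STAR 2.7.9 to hg38 per the submitters' processing notes; which counter, annotation and strand setting were used is not given here, so antisense or overlapping neighbours cannot be separated. After 2 broken lines were left out, 28277 genes remained. The test was edgeR 4.0.16 (R 4.3.3; quasi-likelihood, TMM, filterByExpr, group as only term, two-sided, Benjamini-Hochberg over 14482 genes, threshold 0.05). Simulated libraries of this comparison (14351 genes) gave calls for 52% of genes changed 1.2-fold, 74% at 1.5-fold and 100% at 2-fold, and for 4 unchanged genes. The changed genes were drawn only from those above 2 CPM on average. Many more genes were changed than were called in the data, which makes the adjusted threshold easier to pass. These rates therefore do not carry over to the real comparison or to scarcer members. FPKM was computed here from exon bases on the primary chromosome instead of the deposited lengths first planned, which for 4 members include alternate contigs. Whether the replicates came from separate cultures is not stated in the labels, and p-values here reflect the spread of these libraries alone, and that spread may be technical. The fit had 2 residual degrees of freedom per gene against 36.9 from the spread pooled over genes. SEs and intervals of single genes therefore rest mostly on that pooled spread. The members, role lists and tests were chosen with earlier results of these data known. Named genes were all drug efflux members, every member at 1 CPM or more in all libraries, the extremes, and the 3 smallest p values of each other list; some items that the rule names are not reported here, and others named were chosen after their values were seen. Tried besides were other scaling factors (median-ratio, upper-quartile), other filters, DESeq2 1.42.0, limma-voom (limma 3.58.1), a replicate block and leaving out each library; the deposited lengths were added as an alternative after seeing the data.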

Additional observations from a re-analysis of the deposited data

How the results depend on the processing

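No ABC member passed the threshold under any of the 11 alternatives run, and neither did a member of the 11 gene lists, the replicate block included. With the replicate block the median log2 fold change of the members was -0.019; the labels give the libraries nothing in common but the number, and deviations of libraries with equal numbers had a correlation of 0.05 across genes. That median ran from -0.043 to -0.0044 with each library left out, where the single library left in a group is taken to vary as the other group does. Without Vehicle replicate 1 the whole table had 41 genes called higher and 38 lower, against 2 and 1 with all libraries, and without Vehicle replicate 2 it had 13 and 18. Without Hx1R8 replicate 1 these counts were 2 and 5, and without Hx1R8 replicate 2 they were 5 and 1. The count of expressed members was 26 at 0.5 CPM and 21 at 2 CPM. Single log2 fold changes were recomputed for 24 tested members, and 24 of 264 such values changed sign, all without a call and the cause not tested. With all libraries kept these were ABCA2 without a filter (2.2e-05), ABCA3 with upper-quartile factors (-2.7e-05) and with the block (-0.00031), and ABCE1 without a filter (0.0023) and with DESeq2 (0.00029). With 1 library left out signs turned for ABCA2 (-0.013 to 0.0059), ABCA3 (-0.036 to 0.040), ABCA7 (-0.12 to 0.038), ABCB6 (-0.015 to 0.095), ABCB9 (-0.085 to 0.052), ABCB10 (-0.063 to 0.029), ABCC1 (-0.050 to 0.034), ABCC3 (-0.056 to 0.20), ABCC8 (-0.065 to 0.19), ABCC10 (-0.0091 to 0.016), ABCD3 (-0.019 to 0.026), ABCE1 (-0.060 to 0.060) and ABCF2 (-0.15 to 0.090). Depth limits statements on the 18 members below 1 CPM.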
